A study of Mus musculus with 95 samples.

Results

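The genes described are 10 members of the Notch pathway, chosen by name: the ligands Jag1 and Dll1, the receptors Notch1, Notch2 and Notch3, and the target genes Hes1, Hes5, Hey1, Hey2 and Heyl. They are 10 of the 25407 gene symbols in the deposited tables. The set was drawn up when the lower level of Hes5 in dorsal root ganglia (DRG) of untreated db/db mice was already known, so that comparison is described for every member without a test. RNA-Seq values came from the sciatic nerve (SCN), DRG, isolated kidney glomeruli (Glom) and kidney cortex of male mice of the strain BKS.Cg-m +/+ Leprdb/J, on the C57BLKS background, at 16 weeks of age. The study asked how diabetes and the drug pioglitazone (PIO), an agonist of the nuclear receptor PPARG, change gene expression in nerve and kidney. Each tissue was taken from 4 groups: db/+ mice, which carry 1 working copy of the leptin receptor gene and were the controls, db/+ mice given pioglitazone (db/+ PIO), db/db mice, which carry no working copy and become obese and diabetic, and db/db mice given pioglitazone (db/db PIO). Pioglitazone was given in the chow at 15 mg/kg for 11 weeks. The db mutation removes the signalling form of the leptin receptor from every cell, so an effect of high glucose and one of absent leptin signalling cannot be told apart in these tissues. Every group held 6 libraries but DRG db/db, which held 5, for a total of 95.

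Notch receptors are single-pass membrane proteins that are activated by ligands of the Jagged and Delta-like families on a neighbouring cell. Ligand binding leads to cleavage of the receptor by an ADAM protease and then by gamma-secretase, and the released intracellular part enters the nucleus, binds the DNA-binding protein RBPJ with a Mastermind protein, and switches on targets. The best known targets are the Hes and Hey genes, which encode basic helix-loop-helix repressors. Hes1 and Hes5 are used widely as readouts of the pathway in the nervous system, and Notch3 and Heyl are known from vascular smooth muscle cells and pericytes.

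Of the 10 members, 7 had a promoter in the RefSeq table (build GRCm38.p6), and each window matched the mm9 genome once. Each sequence is printed 5′ to 3′ on the strand of its gene, from 250 bases before the RefSeq start to 10 bases after it. Capitals mark GTGGGAA, the letters known as the RBPJ binding motif, or its reverse complement TTCCCAC. These 7 letters were searched on both strands of the whole 300-base window, and 6.38% of the 32851 mouse promoters of that length hold them. Hes5 and Hey2 are shown because theirs were the member promoters with the letters. Nrarp, a feedback gene of the pathway that is no member of the set, is shown because it was lower beside Hes5 in 1 of the DRG comparisons. The windows lie on mm9 at chr4:154334782-154335041 on the plus strand (Hes5), chr10:30562580-30562839 on the minus strand (Hey2) and chr2:25036028-25036287 on the plus strand (Nrarp).
Hes5: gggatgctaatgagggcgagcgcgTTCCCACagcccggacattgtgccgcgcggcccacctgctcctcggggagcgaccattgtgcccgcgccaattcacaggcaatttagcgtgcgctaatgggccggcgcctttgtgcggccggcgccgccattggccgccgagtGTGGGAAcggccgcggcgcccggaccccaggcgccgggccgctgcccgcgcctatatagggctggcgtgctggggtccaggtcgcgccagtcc
Hey2: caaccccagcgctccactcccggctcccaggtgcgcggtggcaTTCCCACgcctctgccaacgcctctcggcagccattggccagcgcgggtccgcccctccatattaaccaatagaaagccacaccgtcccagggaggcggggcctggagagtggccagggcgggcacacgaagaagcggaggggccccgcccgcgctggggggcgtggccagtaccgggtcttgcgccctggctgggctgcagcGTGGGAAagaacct
Nrarp: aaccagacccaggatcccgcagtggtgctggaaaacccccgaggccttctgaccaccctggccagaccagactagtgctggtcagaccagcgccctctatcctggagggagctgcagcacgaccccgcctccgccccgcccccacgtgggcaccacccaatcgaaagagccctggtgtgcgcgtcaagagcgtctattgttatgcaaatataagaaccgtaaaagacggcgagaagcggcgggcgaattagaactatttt
In Hes5 the letters begin 226 bases before the start in reverse and 83 bases before it forward. In Hey2 they begin 207 bases before the start in reverse and 4 bases before it forward. The windows of Notch1, Notch2, Notch3, Jag1, Dll1 and Nrarp hold no such letters, which says only that this stretch lacks them. The genes lie on mm9 at chr4:154335032-154336480 (Hes5), chr16:30064470-30067882 (Hes1), chr3:8663362-8667039 (Hey1), chr10:30552165-30562607 (Hey2) and chr4:122910799-122927118 (Heyl) for the targets. The receptors lie at chr2:26313423-26372183 (Notch1), chr3:97817461-97954290 (Notch2) and chr17:32257765-32303825 (Notch3), and the ligands at chr2:136907192-136942380 (Jag1) and chr17:15504318-15513836 (Dll1). All are annotated as protein-coding, and the values are for the whole gene, not for single exons.

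Levels are FPKM, a read count corrected for the number of mapped reads and for transcript length, so levels of different genes can be set side by side. An exact 0 in these tables was read as missing, because genes that every cell uses are also listed at 0: Actb, cytoplasmic actin, was at 0 in 74 of 95 libraries. Of the 950 entries of the 10 members, 383 (40.3%) were at 0. The sum of FPKM over all genes ranged from 129009 to 601310 between libraries, with cortex db/db replicate 6 the highest, and 7333 to 10432 genes per library had a value. Defining markers of each tissue were present at high levels where they had a value. The median FPKM was 1604.8 for Prx in SCN (a value in 3 of 24 libraries) and 1391.6 for Nefm in DRG (16 of 23). It was 2278.8 for Podxl in Glom (23 of 24) and 1875 for Slc34a1 in cortex (5 of 24). Other defining markers were at 0 throughout, among them Prph and Scn9a in DRG, Nphs1 in Glom and Slc22a6 in cortex. The muscle gene Acta1 reached 109.24 FPKM in DRG db/db replicate 3, while the other libraries of that group held at most 0.91.

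**Figure D1:**
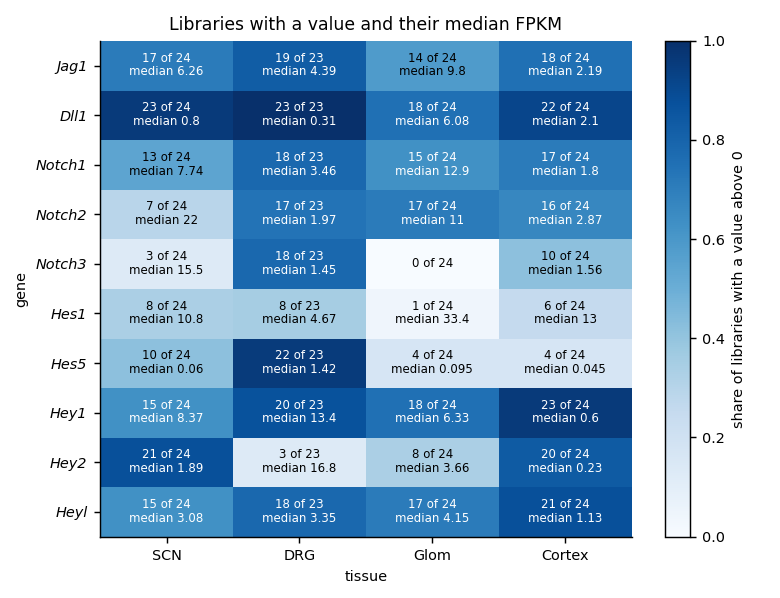
Heat map of the share of libraries with a value above 0 for each of the 10 genes (rows) in each tissue (columns), with the number of libraries and the median FPKM of those values written in each cell. Dll1 had a value in 23 SCN libraries, while Notch3 had none in Glom and Hes5 had 22 in DRG against 4 in Glom and 4 in cortex.

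**Figure D2:**
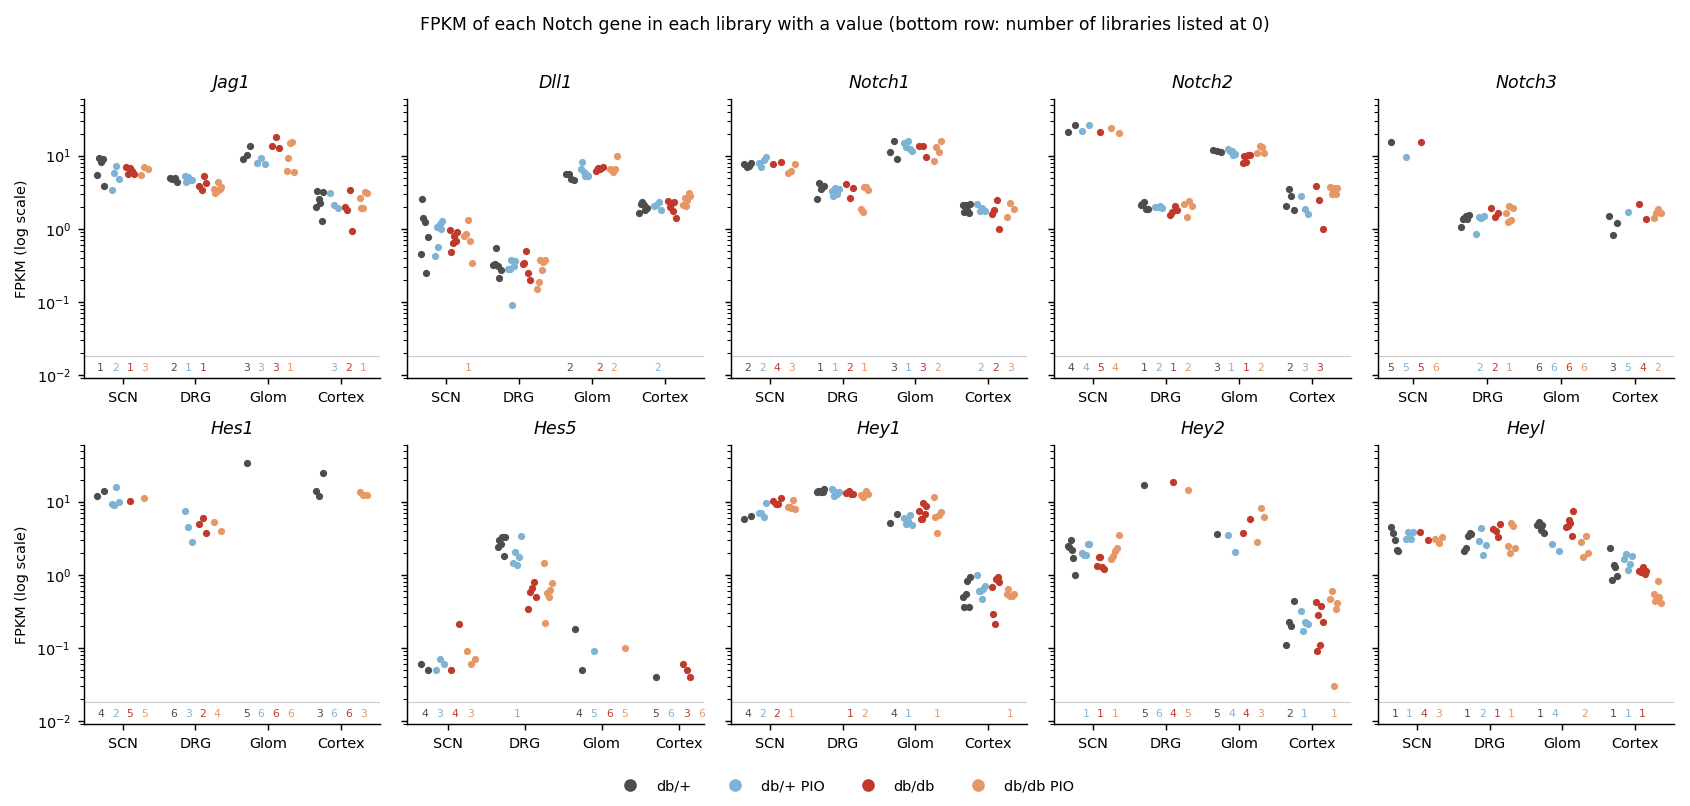
FPKM of each gene in every library on a log axis, one panel per gene, with points coloured by group within the 4 tissues. The numbers along the bottom of each panel count the libraries listed at 0, which were read as missing. Hes5 runs from 0.22 to 3.38 FPKM in DRG, with all 5 db/db values under 1. In the other tissues its listed values stay at or below 0.21.

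The members differed widely in how often they had a value. Dll1 had one in 23 of 24 SCN, 23 of 23 DRG, 18 of 24 Glom and 22 of 24 cortex libraries. Hes1 had a value in 8 SCN, 8 DRG, 1 Glom and 6 cortex libraries, and Notch3 in 3 SCN, 18 DRG, 0 Glom and 10 cortex libraries. A member was tested in a comparison only with values in 3 or more libraries of both groups, and only if it reached 1 FPKM in 5 or more libraries of the tissue, so 3 to 7 of the 10 members were tested in each. Hes1 was tested in none. Differences below are on the log2(FPKM + 1) scale, on which changes near or below 1 FPKM come out smaller, and p-values are from limma, adjusted over all genes tested in the comparison. Nothing in the labels says whether the libraries of a group share mice or cages, so the p-values measure the spread between libraries. The paper lists the tissues together with the number of mice per group, so the same mice may have given several tissues. The labels do not say so. The fits across tissues took the libraries as independent, and their p-values ignore any pairing by mouse. In bulk tissue, fewer cells of a type and less RNA per cell cannot be told apart.

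Within tissues, 5 comparisons had a member past the threshold. With diabetes in PIO-fed mice (db/db PIO against db/+ PIO), 2 of 7 members tested were lower in DRG, Hes5 and Jag1, where 4.54% of the 4095 genes tested were lower. The fall of Hes5 in untreated db/db DRG was known when the set was drawn up. Hes5 also met the filter mainly through the groups where it is high. The count in DRG is therefore not read as an excess over that share. With diabetes in PIO-fed cortex 1 of 5 was lower, Heyl, where 12.6% of 3865 genes were lower. With diabetes in untreated mice 1 of 5 was lower in Glom, Notch2, where 8.91% of 4210 genes were lower. With pioglitazone in db/db mice 1 of 6 members was lower in Glom, Heyl, where 15.9% of 4158 genes were lower, and 1 was higher, Notch2, where 7.19% were higher. In cortex 1 of 5 was lower, again Heyl, where 2.67% of 3890 genes were lower. The median change of the members tested stood close to that of all genes tested in DRG of PIO-fed mice, at -0.07 against -0.0021. In Glom under pioglitazone the members' median was -0.07 and that of all genes -0.04. For diabetes in untreated Glom these medians were 0.12 and 0.04, and in PIO-fed cortex 0.08 and -0.02. For pioglitazone in db/db cortex they were 0.23 and -0.05. In each of these last comparisons the called member was lower while the members' median was above 0. The comparisons share libraries: pioglitazone in db/db mice uses the db/db libraries of the diabetes comparison and the db/db PIO libraries of the comparison in PIO-fed mice. The split of calls over all genes moved with the scaling. In Glom with pioglitazone in db/db mice 299 of 961 calls were higher, against 461 of 1027 after median-of-ratios rescaling and 986 of 1416 after quantile normalization. For diabetes in untreated Glom these were 694 of 1069, 631 of 1159 and 507 of 1220. In DRG of PIO-fed mice 168 of 354 calls were higher, and 179 of 311 after quantile normalization. Quantile normalization moved the median change of all genes in Glom by -0.12 for diabetes in untreated mice and by 0.18 for pioglitazone in db/db mice. In cortex with pioglitazone in db/db mice 22 of 126 were higher, against 41 of 111 and 22 of 72.

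**Figure D3:**
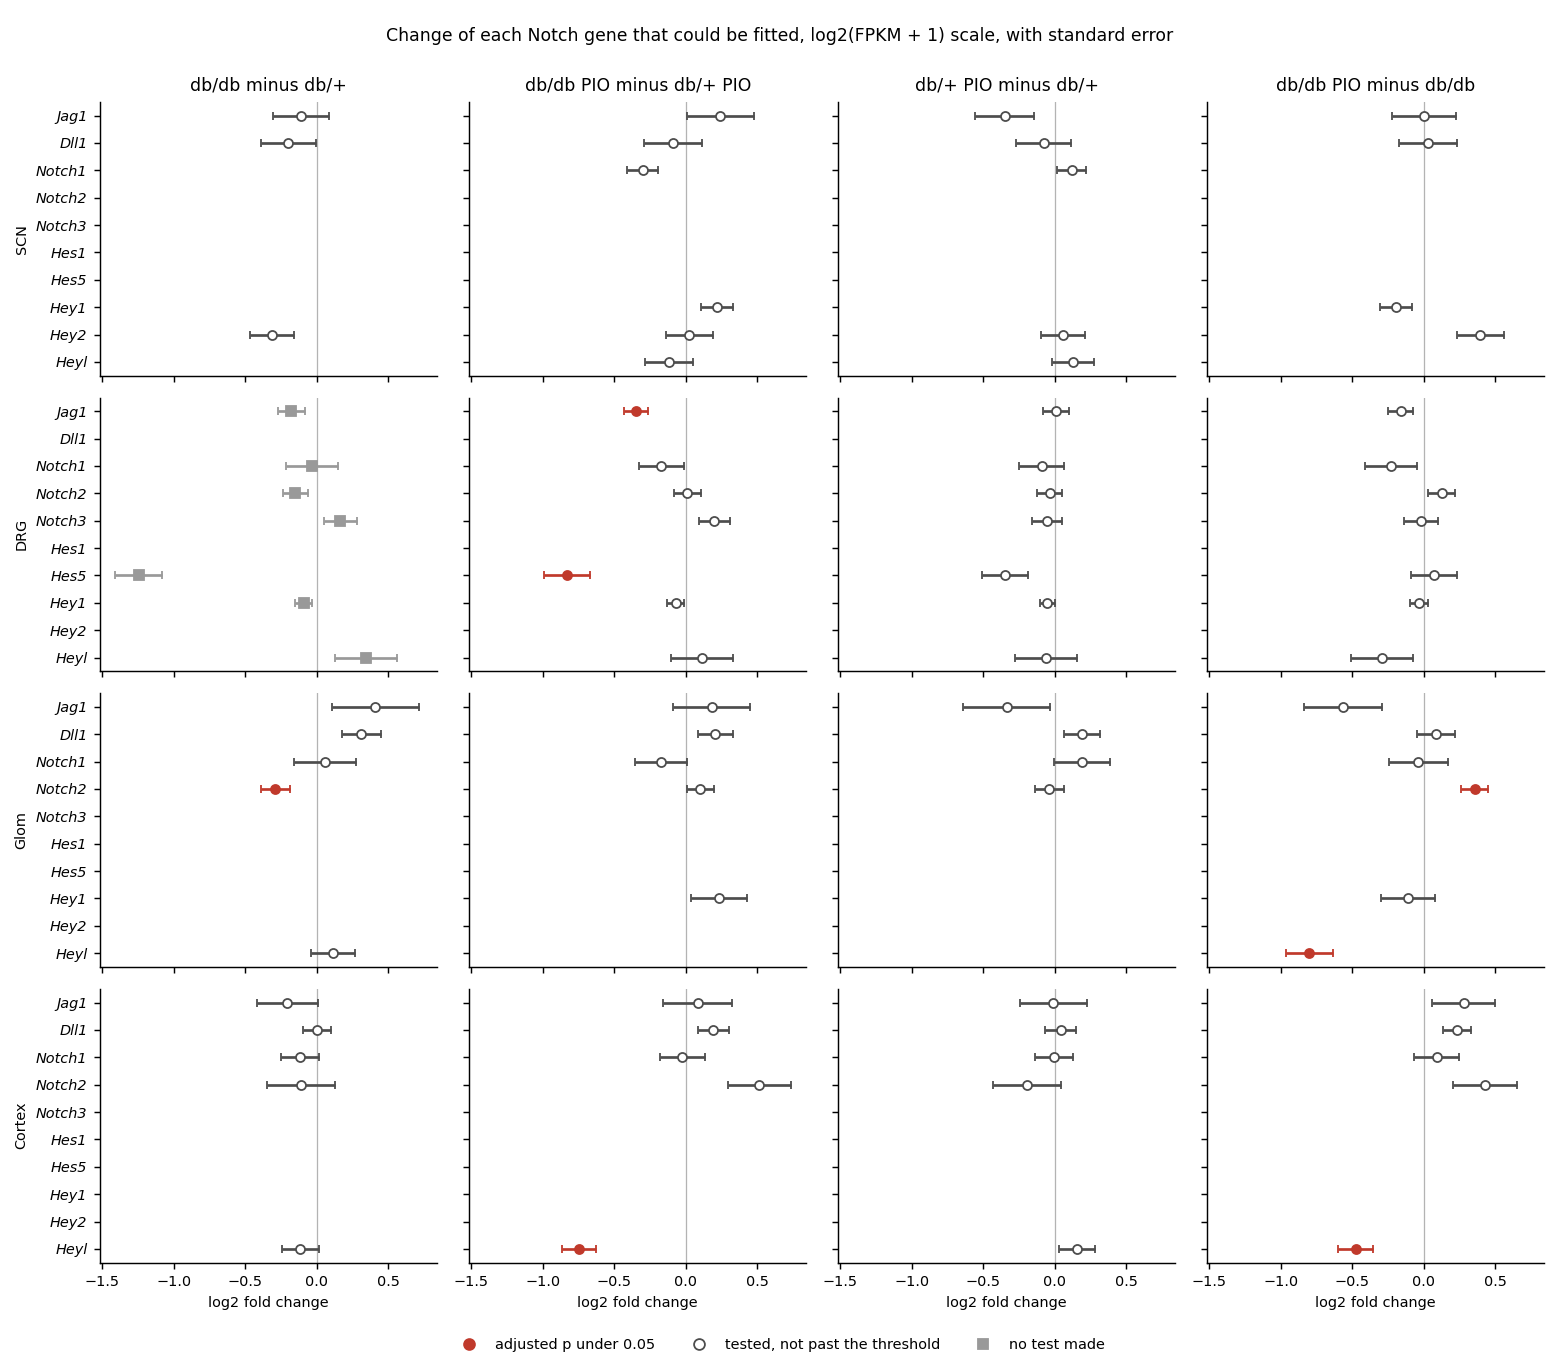
Log2 fold change (log2(FPKM + 1) scale) with its standard error for each tested gene in 4 comparisons (columns of panels) and 4 tissues. Red points passed an adjusted p of 0.05 in limma, open points did not, and grey squares in DRG of untreated mice had no test. Hes5 in DRG and Heyl in Glom and cortex lie farthest below 0 among the red points.

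In the other comparisons no member passed the threshold in limma. Diabetes in untreated mice gave 0 of 3 in SCN (14.9% of 4233 genes called in either direction) and 0 of 5 in cortex (10.3% of 3925), with 0 members at an unadjusted p under 0.05 in either. Diabetes in PIO-fed mice gave 0 of 6 in SCN (33.8% of 4402 genes called), with 1, Notch1, at an unadjusted p under 0.05, and 0 of 5 in Glom (8.41% of 4255), with 0. Pioglitazone in db/db mice gave 0 of 4 in SCN (10.1% of 3940), with 1, Hey2, at an unadjusted p under 0.05. It gave 0 of 7 in DRG, where 0 of 3794 genes were called and 325 (8.57%) had an unadjusted p under 0.05. With Hes5 set aside, none of these was a member. Pioglitazone in db/+ mice gave 0 of 5 in SCN (0.0778% of 5142), 0 of 7 in DRG (0 of 4153 genes called, 403 or 9.7% at an unadjusted p under 0.05), 0 of 4 in Glom (0 of 4419 called, 118 or 2.67% unadjusted) and 0 of 5 in cortex (0.025% of 4004). Among the members in those 4 tests, Hes5 in DRG set aside, none had an unadjusted p under 0.05. Hes5 is counted among the 7 members in both DRG comparisons with pioglitazone. These use the untreated libraries in which Hes5 was first noticed, so no p-value is read for it there. The interaction of genotype and pioglitazone called 0 of 3 in SCN (6.23% of 3596), 0 of 4 in Glom (9.71% of 3563) and 0 of 5 in cortex (0.031% of 3228), with Notch2 in Glom and Heyl in cortex at an unadjusted p under 0.05.

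No call on a member within a tissue was kept with the 0 entries taken as true values in place of missing, and 2 of the members called then turned direction. Jag1 in DRG of PIO-fed mice moved to 0.076, and Notch2 in Glom to 0.97 for diabetes and to -0.32 for pioglitazone in db/db mice. Calls between tissues of db/+ mice were fragile too. Of these, only Dll1 for DRG under Glom and Hey1 for DRG over cortex passed in every alternative setting that tested them. The changes and tissue orders described below therefore hold for the libraries that list a value.

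Of the ligands, Jag1 encodes a Jagged ligand found in many tissues. In untreated db/+ mice its FPKM in Glom was 8.87, 10.31 and 13.46. In SCN it was 5.48, 9.18, 8.09, 9.13 and 3.81, and in DRG 4.92, 4.86, 4.93 and 4.39. In cortex it ran from 1.27 over a median of 2.42 to 3.29. The order of the mean levels was Glom, SCN, DRG and cortex, and the SCN libraries overlapped those of Glom and DRG. Among neighbours in that order, SCN was lower than Glom (log2 fold change -0.59, SE 0.23, adjusted p = 0.0352). SCN and DRG did not pass (0.44, SE 0.21, adjusted p = 0.0707), and DRG was higher than cortex (0.78, SE 0.21, adjusted p = 0.00219). The call between SCN and Glom was lost without SCN db/+ replicate 1 (-0.52, adjusted p = 0.0740) or replicate 5 (-0.41, adjusted p = 0.0847), in a fit of those 2 groups alone (adjusted p = 0.0847) and with a pseudocount of 0.1 (adjusted p = 0.0556).

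Jag1 was lower in DRG of db/db PIO mice than in DRG of db/+ PIO mice. The db/+ PIO libraries held 5.32, 4.39, 5.06, 4.7 and 4.6 FPKM, with replicate 5 listed at 0. The db/db PIO libraries ran from 3.06 over a median of 3.52 to 4.38. The groups did not overlap, with the highest db/db PIO library just under the lowest db/+ PIO library. The means were 3.58 ± 0.452 (SD, n = 6) and 4.81 ± 0.373 (SD, n = 5), with a log2 change of -0.35 (SE 0.08, adjusted p = 0.0140). Leaving out each library in turn kept the call, between -0.39 and -0.31. In untreated DRG the db/db values were 3.81, 3.37, 5.2 and 4.21, which overlapped the 4 db/+ values given above, and the difference, not tested, was -0.18 (SE 0.10). Pioglitazone did not pass in DRG of db/db mice (-0.16, adjusted p = 0.657) or db/+ mice (0.01, adjusted p = 0.973). In Glom the 3 db/db values of Jag1, 13.74, 17.85 and 12.61, and the 5 db/db PIO values, 6.14, 9.16, 14.75, 15.19 and 6.03, overlapped (-0.56, SE 0.27, adjusted p = 0.152).

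Dll1 encodes a Delta-like ligand and was the member with the fewest missing values. In untreated db/+ mice its FPKM in Glom was 5.57, 5.65, 4.82 and 4.64. In cortex it ran from 1.62 over a median of 2.005 to 2.35. In SCN it ran from 0.25 over 1.0 to 2.58, and in DRG from 0.21 over 0.315 to 0.55. The Glom libraries stood above all others, and the SCN libraries overlapped those of cortex and DRG. Each step in the order Glom, cortex, SCN, DRG passed the threshold, with log2 differences of 1.05 (SE 0.19) for Glom over cortex, -0.58 (SE 0.17) for SCN under cortex and 0.58 (SE 0.17, adjusted p = 0.00374) for SCN over DRG. The last of these did not pass after quantile normalization (0.26, adjusted p = 0.0862).

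Dll1 did not pass the threshold with diabetes or pioglitazone in SCN, Glom or cortex, and it was not tested within DRG, where it never reached 1 FPKM. In Glom the db/db values, 6.17, 6.78, 6.64 and 6.98, all stood above the db/+ values, with a log2 change of 0.31 (SE 0.13, adjusted p = 0.102, unadjusted p = 0.0338). That difference passed without Glom db/db PIO replicate 6, which held 9.89 FPKM (0.31, adjusted p = 0.0437), and in a fit of the 2 compared groups alone (adjusted p = 0.0377). In cortex the db/db PIO libraries ran from 2.02 to 3.1 and the db/db libraries from 1.41 to 2.4, overlapping (0.23, SE 0.10, adjusted p = 0.172). In DRG all 23 libraries lay between 0.09 and 0.55 FPKM.

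Of the receptors, Notch1 is the most widely expressed family member and acts in both nerve and kidney development. In untreated db/+ mice its FPKM was 11.05, 15.97 and 8.88 in Glom, and 7.76, 7.02, 7.25 and 7.93 in SCN. In DRG it was 2.52, 4.16, 3.45, 3.71 and 3.83, and in cortex it ran from 1.62 over 1.94 to 2.19. No 2 tissues overlapped. The order Glom, SCN, DRG, cortex passed at each step, with log2 differences of -0.58 (SE 0.15, adjusted p = 0.00294) for SCN under Glom, 0.92 (SE 0.13, adjusted p = 6.73e-06) for SCN over DRG and 0.63 (SE 0.12, adjusted p = 1.21e-04) for DRG over cortex. Each step failed in 1 alternative setting, with adjusted p of 0.918, 0.886 and 0.877 in the same order. With each 0 entered as a value, SCN against Glom turned direction.

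Notch1 came near the threshold in SCN of PIO-fed mice. The db/db PIO libraries held 5.87, 6.08 and 7.57 FPKM and the db/+ PIO libraries 7.88, 6.91, 8.68 and 9.56. The highest db/db PIO library lay above the lowest db/+ PIO library, so the groups overlapped. The means were 6.51 ± 0.927 (SD, n = 3) and 8.26 ± 1.13 (SD, n = 4), a log2 change of -0.30 (SE 0.11, adjusted p = 0.0506). It passed without SCN db/+ PIO replicate 3 (-0.37, adjusted p = 0.0187), without db/+ PIO replicate 4 (-0.30, adjusted p = 0.0489) or without db/+ replicate 4 (-0.30, adjusted p = 0.0495). In Glom, DRG and cortex no comparison of Notch1 came near it, with changes between -0.23 and 0.19.

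Notch2, the second widely expressed receptor, was highest in SCN, where only 7 of 24 libraries had a value, from 20.71 to 26.58 FPKM. The db/+ values there were 20.8 and 26.58, too few for a test. In untreated db/+ mice the FPKM was 12.05, 11.41 and 11.09 in Glom, 2.08, 3.47, 2.79 and 1.8 in cortex, and 2.14, 2.16, 2.3, 1.86 and 1.85 in DRG. Glom stood above cortex by 1.85 on the log2 scale (SE 0.14, adjusted p = 4.75e-08), and cortex and DRG overlapped (DRG minus cortex -0.19, adjusted p = 0.192).

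In Glom, Notch2 was lower with diabetes and higher with pioglitazone in db/db mice. The db/db libraries held 7.98, 9.92, 8.07, 10.15 and 10.27 FPKM, all below the 3 db/+ values above. The db/db PIO libraries held 10.97, 13.56, 13.16 and 10.84, all above the db/db values. The db/+ PIO libraries, at 12.21, 11.62, 11.73, 10.07 and 10.42, overlapped both the db/+ and the db/db libraries. For diabetes the means were 9.28 ± 1.15 (SD, n = 5) and 11.5 ± 0.489 (SD, n = 3), with a log2 change of -0.29 (SE 0.10, adjusted p = 0.0446). For pioglitazone in db/db mice the means were 12.1 ± 1.43 (SD, n = 4) and 9.28 ± 1.15 (SD, n = 5), with a log2 change of 0.35 (SE 0.09, adjusted p = 0.0122). The fall with diabetes was lost without db/db replicate 1 (-0.24, adjusted p = 0.101) or replicate 3 (-0.25, adjusted p = 0.0992). It was also lost without db/+ PIO replicate 2 or 3 (adjusted p = 0.0539 and 0.0532), and could not be tested without db/+ replicate 3, 4 or 6, which leaves 2 values. It did not pass in a fit of those 2 groups alone (adjusted p = 0.0831) or with the replicate number as a block (-0.34, adjusted p = 0.0823). The rise with pioglitazone was kept without each library in turn. The interaction of genotype and pioglitazone was 0.39 (SE 0.14, unadjusted p = 0.0113, adjusted p = 0.0818), which passed after median-of-ratios rescaling (0.51, adjusted p = 0.0272) or quantile normalization (0.63, adjusted p = 0.0100).

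In cortex the 6 db/db PIO libraries of Notch2 ran from 2.95 to 3.68 FPKM, above the db/+ PIO values of 2.78, 1.89 and 1.57. That difference of 0.51 (SE 0.22) did not pass (adjusted p = 0.123), except without cortex db/db replicate 6 (adjusted p = 0.0242), in a fit of the 2 groups alone (adjusted p = 0.0123) or after quantile normalization (adjusted p = 0.0497). In DRG, Notch2 stayed between 1.44 and 2.41 FPKM in the 17 libraries with a value, and no comparison passed.

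Notch3, known from mural cells of vessels, was low in DRG and cortex, absent from the values of Glom, and listed in 3 SCN libraries at 15.48, 9.62 and 15.53 FPKM. In DRG the db/+ libraries ran from 1.05 over 1.39 to 1.54. The db/db values were 1.9, 1.45 and 1.62, those of db/+ PIO 0.84, 1.44, 1.4 and 1.49, and those of db/db PIO 1.63, 1.22, 2.08, 1.32 and 1.91. The groups overlapped, and in PIO-fed mice the difference was 0.20 (SE 0.11, adjusted p = 0.279). DRG and cortex of db/+ mice also overlapped (0.14, adjusted p = 0.301).

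Of the targets tested in PIO-fed DRG, Hes5, Hey1 and Heyl, only Hes5 was called, and its fall in untreated mice was already known. Hes1 and Hey2 had too few values in DRG for a test. In SCN, Glom and cortex Hes5 had a value in 10, 4 and 4 libraries, all at or below 0.21 FPKM, and in DRG in 22 of 23 libraries with a median of 1.415. Among libraries with a value, DRG was thus the only tissue in which Hes5 passed 1 FPKM. Hes5 was listed at 0 in 14 of 24 SCN, 20 of 24 Glom and 20 of 24 cortex libraries, where its level is unknown.

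In untreated DRG, the comparison in which Hes5 was first noticed, the db/+ libraries ran from 1.81 over a median of 2.83 to 3.34 FPKM. The db/db libraries held 0.34, 0.58, 0.67, 0.81 and 0.49. The groups lay apart, and every db/db library was under 1 FPKM. The means were 2.76 ± 0.589 (SD, n = 6) and 0.578 ± 0.178 (SD, n = 5), and the difference was -1.24 (SE 0.16) with a pseudocount of 1 and -2.09 with a pseudocount of 0.1, given without a test.

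The PIO-fed libraries, which took no part in that first comparison, were tested. Hes5 met the filter of 1 FPKM in DRG mainly through the db/+ and db/+ PIO libraries, where it is high. The fit also took its estimate of the spread from all 4 groups, the untreated ones included. The db/+ PIO libraries held 1.47, 2.02, 1.38, 1.76 and 3.38 FPKM, with replicate 1 listed at 0. The db/db PIO libraries ran from 0.22 over a median of 0.59 to 1.45. Replicate 1 of db/db PIO, at 1.45, lay above the lowest db/+ PIO library, and the other 5 lay under 1 FPKM and below all db/+ PIO values. The means were 0.687 ± 0.415 (SD, n = 6) and 2.00 ± 0.811 (SD, n = 5), and the log2 fold change was -0.83 (SE 0.16, adjusted p = 0.00317). Leaving out each library in turn gave -0.94 to -0.68, with adjusted p between 6.74e-04 and 0.00873. With a pseudocount of 0.1 the change was -1.50.

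**Figure D4:**
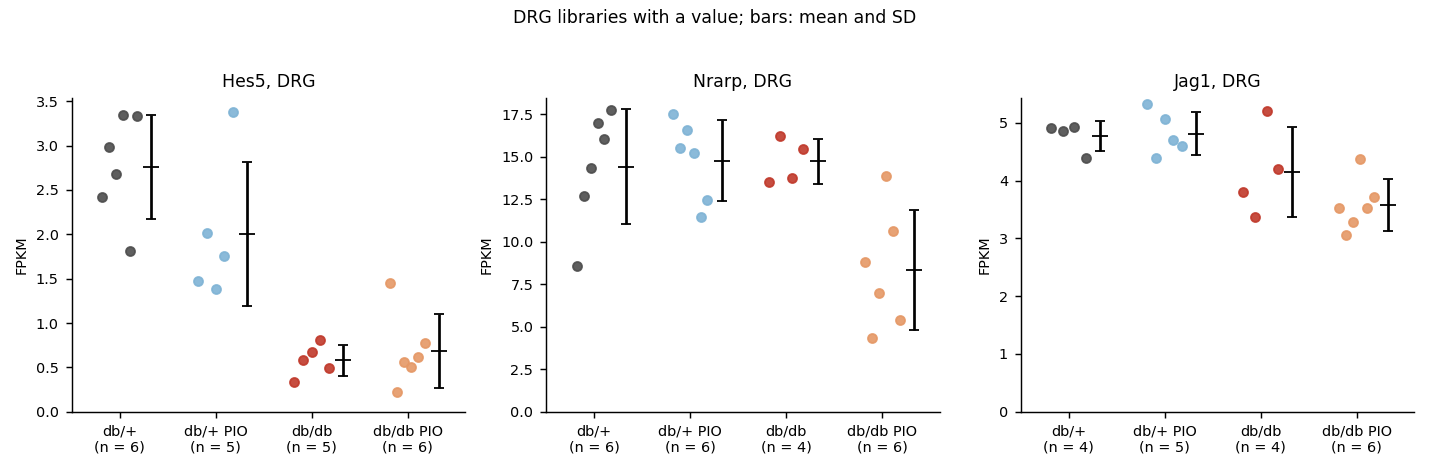
FPKM of Hes5, Nrarp and Jag1 in each DRG library of the 4 groups, with bars for the mean and error bars for the SD of the values above 0. All 5 db/db libraries and 5 of 6 db/db PIO libraries of Hes5 lie below every db/+ library and every db/+ PIO library.

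The comparisons of pioglitazone with untreated mice use the untreated libraries in which Hes5 was first noticed, so for Hes5 they are given as differences only. In DRG of db/+ mice the difference was -0.35 (SE 0.16). Of the 5 db/+ PIO values, 3 lay below the db/+ range of 1.81 to 3.34 FPKM, 1 inside it and 1, at 3.38, just above it. In db/db mice the difference was 0.07 (SE 0.16), which turned to -0.044 without db/db PIO replicate 1. The change in PIO-fed mice was set against that in SCN, where Hes5 lay between 0.05 and 0.09 FPKM in the 6 PIO-fed libraries with a value. On the log2(FPKM + 1) scale values that low cannot show a change, and Hes5 entered the fit of both tissues through its DRG values. The difference DRG minus SCN, -0.85 (SE 0.24, adjusted p = 0.0126), therefore restates the change in DRG, and no difference between tissues was read from it. Hes5 was the only one of 6 members called, where 14.2% of 3502 genes had a difference below 0 that passed and 20.4% were called in either direction. The value needs all 6 of those SCN libraries, db/+ PIO replicates 1, 2 and 5 and db/db PIO replicates 1, 4 and 5, and could not be computed without any one of them. Jag1 (-0.59, SE 0.23, adjusted p = 0.0732) and Hey1 (-0.29, SE 0.12, adjusted p = 0.0824) did not pass. Jag1 passed without SCN db/+ PIO replicate 4 (-0.74, adjusted p = 0.0189) or without SCN db/+ replicate 5 (-0.59, adjusted p = 0.0281), and Hey1 without SCN db/+ PIO replicate 5 (-0.41, adjusted p = 0.00552).

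Markers of other cell types were read beside the fall of Hes5 in PIO-fed DRG. Satellite glia, the cells that wrap sensory neurons, had 2 of 7 markers tested, and 1, the potassium channel Kcnj10, was lower. The summed FPKM of the 7 markers overlapped widely, from 15.27 to 176.70 in db/+ PIO and from 0 to 442.66 in db/db PIO, with Cdh19 at 0 in both. None of the 5 Schwann cell myelin markers could be tested, and Mbp, Pmp22, Prx and Mag were at 0 in both groups. Of 8 sensory neuron markers, 4 were tested and none was called, with Prph, Nefh, Scn9a and Isl1 at 0 throughout. Both adipocyte markers tested of 5, Adipoq and Fabp4, were higher in db/db PIO (median log2 fold change 2.03), with sums of 3.92 to 81.43 in db/+ PIO and 25.63 to 183.62 in db/db PIO. None of 6 endothelial, 5 mural, 4 macrophage or 3 muscle markers tested was called. The sums read a 0 as no contribution. The part of these cell types in the lower Hes5 and Jag1 was not tested.

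Heyl, a Hey family repressor, was lower with pioglitazone in both kidney tissues of db/db mice. In Glom the db/db libraries ran from 3.35 over a median of 4.865 to 7.47 FPKM. The db/db PIO libraries held 2.78, 1.77, 3.43 and 2, with replicates 1 and 4 listed at 0. The highest db/db PIO library lay just above the lowest db/db library, and the other 3 lay below all db/db libraries. The means were 2.50 ± 0.759 (SD, n = 4) and 5.11 ± 1.37 (SD, n = 6), with a log2 change of -0.80 (SE 0.16, adjusted p = 0.00268). The call was kept without each library in turn, and the change was -0.48 after quantile normalization (adjusted p = 0.0426). In db/+ PIO mice only 2 libraries had a value, 2.66 and 2.15, so that group was not tested. Both lay below the 5 db/+ values of 4.82, 5.3, 4.15, 4.75 and 3.74. Diabetes in untreated mice gave 0.12 (SE 0.15, adjusted p = 0.619).

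In cortex the db/db PIO libraries of Heyl ran from 0.41 over 0.5 to 0.83 FPKM. None of them reached 1 FPKM, so Heyl met the filter in cortex through the other groups. The db/+ PIO libraries held 1.65, 1.93, 1.15, 1.4 and 1.8, and the db/db libraries 1.13, 1.09, 1.29, 1.02 and 1.14. All 6 db/db PIO libraries lay below every library of both other groups. Against db/+ PIO the means were 0.538 ± 0.151 (SD, n = 6) and 1.59 ± 0.313 (SD, n = 5), with a log2 change of -0.75 (SE 0.12, adjusted p = 1.99e-04). Against db/db, with a mean of 1.13 ± 0.0991 (SD, n = 5), the change was -0.48 (SE 0.12, adjusted p = 0.0374). The first call was kept without each library in turn. The second was lost without any one of db/db replicates 1, 3, 4 and 5 or db/db PIO replicates 1, 2, 3, 5 and 6 (-0.50 to -0.45, adjusted p = 0.0519 to 0.0800). It also did not pass after quantile normalization (-0.39, adjusted p = 0.115) or with the replicate number as a block (-0.46, adjusted p = 0.0578).

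Neither diabetes in untreated mice nor pioglitazone in db/+ mice moved Heyl in cortex past the threshold. The db/+ libraries held 2.35, 0.86, 1.37, 1.26 and 0.96 FPKM, which overlapped both db/db and db/+ PIO. The differences were -0.11 (SE 0.13, adjusted p = 0.683) for diabetes and 0.16 (SE 0.13, adjusted p = 1.00) for pioglitazone. The interaction in cortex was -0.63 (SE 0.18, unadjusted p = 0.00183, adjusted p = 0.221), and it passed only without db/+ replicate 1, the library at 2.35 FPKM (-0.77, adjusted p = 0.0228). Whether the change of Heyl differed between Glom and cortex in PIO-fed mice was not tested, since Glom db/+ PIO had 2 values. Of the 5 members for which that difference could be tested, none was called (9.52% of 3309 genes called in either direction), with 0 at an unadjusted p under 0.05.

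**Figure D5:**
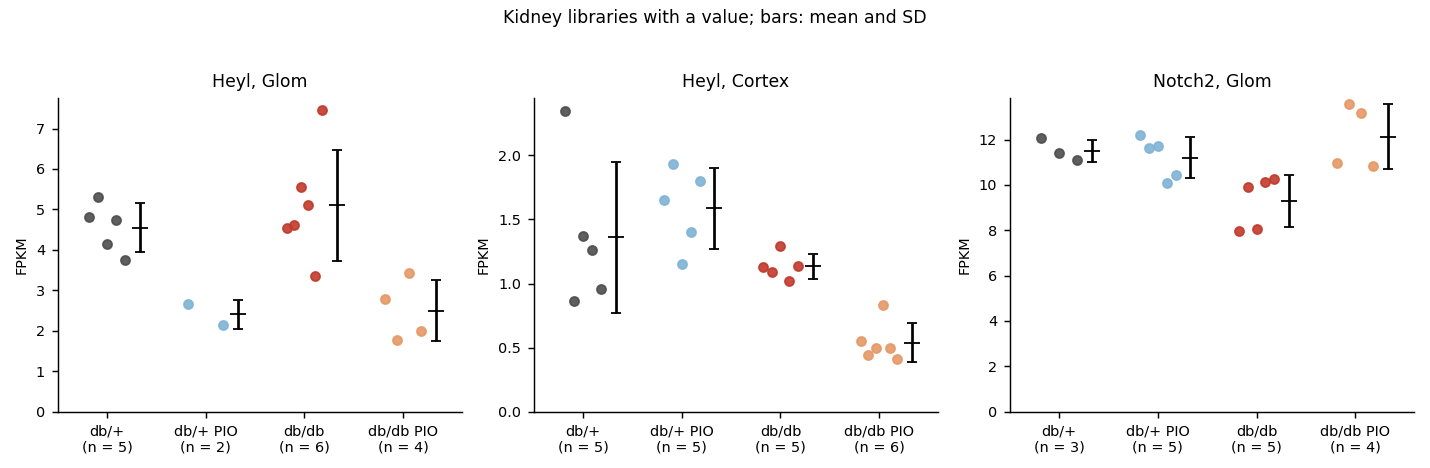
FPKM of Heyl in Glom, Heyl in cortex and Notch2 in Glom in each library of the 4 groups, with bars for the mean and error bars for the SD of the values above 0. The 6 cortex db/db PIO libraries of Heyl, from 0.41 to 0.83, lie below every other cortex library with a value.

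Markers of other cells moved with the kidney comparisons. In Glom with pioglitazone in db/db mice, all 3 macrophage markers tested of 6, C1qa, C1qb and C1qc, were lower, with sums of 2.40 to 17.52 in db/db PIO against 26.04 to 116.01 without the drug. All 4 markers of distal tubule and collecting duct tested of 9 were lower as well, with sums of 13.44 to 42.36 against 28.50 to 99.11. Of 8 mural cell markers 4 were tested, of which Des was higher and Kcnj8 lower, and the sums overlapped, at 107.40 to 297.96 against 105.05 to 271.59. For diabetes in untreated Glom the same 4 tubule markers were higher (median log2 fold change 2.82), as were C1qb and Kcnj8. In cortex of PIO-fed mice, of 7 mural markers tested Cspg4 and Myh11 were higher and Des and Kcnj8 lower in db/db PIO, with sums of 9.38 to 30.81 against 16.81 to 35.17, and all 4 macrophage markers tested were lower. For pioglitazone in cortex of db/db mice no mural marker of 7 was called, and C1qa and C1qb were lower. Podocyte sums in Glom overlapped, at 2475.7 to 4804.1 in db/db PIO, 0 to 4433.2 in db/db and 3701.9 to 5513.9 in db/+. Nphs1 and Wt1 were at 0 in all of these groups. Proximal tubule sums in Glom overlapped too, at 0.55 to 37.06 in db/db PIO, 2.59 to 74.38 in db/db and 21.10 to 33.75 in db/+. The part of podocytes, macrophages, tubule and mural cells in the values of Heyl and Notch2 was not tested.

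Between tissues of untreated db/+ mice, Heyl was highest in Glom, followed by SCN and DRG and then cortex. The SCN values were 4.51, 3.7, 2.98, 2.17 and 2.12 FPKM and the DRG values 2.11, 2.35, 3.43, 3.78 and 3.61, which overlapped throughout (6.7e-04, adjusted p = 0.997). Glom stood above SCN (SCN minus Glom -0.47, SE 0.18, adjusted p = 0.0257) and above DRG (-0.47, SE 0.18, adjusted p = 0.0213). The difference from SCN was lost without SCN db/+ replicate 5 or 6 or Glom db/+ replicate 2 (-0.42 to -0.38, adjusted p = 0.0562 to 0.0760). That from DRG was lost without DRG db/+ replicate 1 or 2 (-0.38 and -0.40, adjusted p = 0.0666 and 0.0572) and fell to -0.10 after median-of-ratios rescaling (adjusted p = 0.600). Both SCN and DRG stood above cortex by 0.79 (SE 0.18, adjusted p = 4.75e-04 for SCN), the first of which did not pass after quantile normalization (0.28, adjusted p = 0.126).

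Hey1, a Hey repressor that acts with Hey2 in vessel development, had a value in 20 of 23 DRG libraries. These ran from 11.65 over a median of 13.445 to 15.11 FPKM, with an SD of 0.901 over all groups together. The db/+ libraries ran from 13.42 to 14.91, the db/+ PIO libraries from 12.15 to 15.11, and the db/db and db/db PIO values were 12.99, 13.87, 12.74 and 12.63, and 12.48, 11.65, 14.14 and 12.82. The 4 groups overlapped, and the tested differences were between -0.07 and -0.03. In cortex all 23 values were between 0.21 and 1.01 FPKM, and DRG stood above cortex in db/+ mice by 3.25 on the log2 scale (SE 0.09, adjusted p = 2.19e-14).

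In SCN, Hey1 had 2 db/+ values, 5.89 and 6.44 FPKM, and 4 db/db values, 10.11, 9.38, 9.44 and 11.4, which lay apart but were too few for a test. In PIO-fed SCN the db/+ PIO values, 7.05, 6.92, 6.08 and 9.58, overlapped the db/db PIO values, 8.52, 8.37, 8.22, 10.6 and 7.92 (0.22, SE 0.11, adjusted p = 0.144). It passed without SCN db/+ PIO replicate 5, the library at 9.58 FPKM (0.34, adjusted p = 0.0187).

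Hey2, the other vascular Hey repressor, was tested within SCN only. The db/+ libraries ran from 0.98 over 2.295 to 2.98 FPKM and the db/db libraries held 1.33, 1.75, 1.75, 1.28 and 1.22. The groups overlapped through a single db/+ library, replicate 6, at 0.98. The difference was -0.31 (SE 0.15, adjusted p = 0.178), and it passed without that library (-0.44, adjusted p = 0.0310). The db/db PIO libraries, at 1.67, 1.81, 2.1, 2.35 and 3.51, overlapped the db/db libraries (0.40, SE 0.16, unadjusted p = 0.0234, adjusted p = 0.130). In DRG, 3 of 23 libraries listed Hey2, at 16.75, 18.42 and 14.65 FPKM, and in cortex 20 libraries lay between 0.03 and 0.61. SCN stood above cortex in db/+ mice by 1.30 (SE 0.17, adjusted p = 3.16e-05).

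Hes1, a target with a broad range of expression, was listed at 0 in most libraries. Its SCN values were 12.08 and 13.94 FPKM in db/+ and 9.38, 8.94, 15.71 and 10.02 in db/+ PIO. Single db/db and db/db PIO libraries held 10.3 and 11.38. In DRG no db/+ library had a value, and the others were 7.37, 4.44 and 2.82 in db/+ PIO, 4.89, 6.06 and 3.68 in db/db, and 5.29 and 3.98 in db/db PIO. In cortex the db/+ values were 13.8, 12.15 and 24.55 and those of db/db PIO 13.72, 12.27 and 12.32. In SCN both single values lay below the 2 db/+ values and inside the range of db/+ PIO. In DRG and cortex the groups given overlapped. No compared pair of groups had 3 values each, so Hes1 was not tested.

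Over the 6 pairs of tissues in untreated db/+ mice, most members tested differed, as did most genes. SCN was above DRG in 2 of 4 members (51% of 4330 genes higher) and below Glom in 4 of 4 (39.1% of 4441 lower). SCN was above cortex in 4 of 5 (50.7% of 4475 higher) and below it in 1, Dll1 (25.7% lower). DRG was below Glom in 5 of 5 (50.4% of 3779 lower), above cortex in 4 of 7 (39% of 3932 higher) and below it in 1, Dll1 (40.5% lower). Glom was above cortex in 5 of 5 (52.2% of 4097 higher). The median of all genes tested was itself shifted, by 0.33 for SCN over DRG, 0.33 for Glom over cortex, 0.30 for SCN over cortex and -0.30 for DRG under Glom. The medians of the members tested were 0.51, 1.81, 1.22 and -1.49 in the same order. After quantile normalization the calls over all genes were nearly balanced, with 1544 of 3316 higher for SCN over DRG against 2210 of 3421 as deposited, and 1463 of 2829 for Glom over cortex against 2140 of 3093. Without Glom db/+ replicate 3 the counts against Glom were 2 for SCN, 2 for DRG and 2 for cortex.

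The other genes of the pathway were read from a list of 54 in the tables, covering further ligands and receptors, the cleaving enzymes, the glycosyltransferases that modify receptors, the nuclear complex, ubiquitin ligases and feedback genes. In PIO-fed DRG, 13 were tested, 2 were higher and 2 lower, where 8.64% of all genes tested were called in either direction. Nrarp, a feedback inhibitor whose product binds the Notch intracellular domain, ran from 11.43 over 15.36 to 17.51 FPKM in db/+ PIO and from 4.35 over 7.905 to 13.86 in db/db PIO. The groups overlapped through replicate 4 and no other library of db/db PIO lay above the lowest db/+ PIO library. The means were 8.34 ± 3.53 (SD, n = 6) and 14.8 ± 2.36 (SD, n = 6), with a log2 change of -0.83 (SE 0.20, adjusted p = 0.0126), which did not pass in a fit of those 2 groups alone (adjusted p = 0.0582). In untreated DRG the db/db values of Nrarp, 13.49, 16.2, 13.75 and 15.48, lay inside the range of the db/+ libraries, from 8.6 to 17.77, and the difference, not tested, was 0.06 (SE 0.22). Hes5 and Nrarp were thus both lower in PIO-fed db/db DRG, while in untreated db/db DRG Hes5 was lower and Nrarp was not apart from db/+.

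Pioglitazone in db/db DRG gave Nrarp a difference of -0.84 (SE 0.22, unadjusted p = 0.00111) that did not pass (adjusted p = 0.166). The change of Nrarp in PIO-fed mice differed between DRG and SCN (-0.85, SE 0.24, adjusted p = 0.00828), where the 24 SCN libraries held 2.95 to 6.38 FPKM. The other pathway genes called in PIO-fed DRG were Adam17, a protease that can cleave Notch receptors (-0.47, SE 0.12, adjusted p = 0.0249), Kat2b, an acetyltransferase of the nuclear complex (0.37, SE 0.08, adjusted p = 0.0181), and Maml3, a Mastermind coactivator (0.23, SE 0.07, adjusted p = 0.0458). Adam17 and Kat2b did not pass in a fit of the 2 groups alone (adjusted p = 0.0928 and 0.106). Maml3 lost its call in 12 of 23 fits with 1 library left out (adjusted p up to 0.111) and in 5 of 8 other settings. Rbpj itself gave 0.29 (SE 0.12) and did not pass (adjusted p = 0.147). It and Maml3 were named after their values were seen.

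Dll4, a Delta-like ligand known from endothelium, was lower in db/db cortex. The db/+ libraries ran from 4.31 over 5.515 to 7.7 FPKM and the db/db libraries from 1.35 over 2.62 to 3.06. The groups lay apart, with means of 2.36 ± 0.703 (SD, n = 6) and 5.68 ± 1.10 (SD, n = 6), and the log2 fold change was -1.01 (SE 0.16, adjusted p = 2.29e-04). In PIO-fed cortex the db/db PIO values, 1.45, 2.31, 3.15, 2.58 and 2.3, also lay below the db/+ PIO values, 5.2, 6.34 and 4.24 (-0.91, SE 0.20, adjusted p = 0.00258). In PIO-fed Glom the 6 db/db PIO libraries, from 6.23 to 16.6, lay below the 3 db/+ PIO values, 19.62, 17.64 and 17.06 (-0.85, SE 0.21, adjusted p = 0.0227), which came to -0.74 after quantile normalization (adjusted p = 0.0507). Endothelial markers were mostly at 0 in these tissues: none of 8 could be tested in Glom and 1 in PIO-fed cortex, which was not called. In untreated Glom the Dll4 groups overlapped, with 15.19, 11.94 and 9.77 FPKM in db/db against 18.63, 16.35 and 13.63 in db/+. In PIO-fed SCN Dll4 was not lower with diabetes. The db/db PIO values there, from 5.41 to 7.37, overlapped the db/+ PIO values, from 2.95 to 5.8, and reached higher.

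Lfng, a glycosyltransferase that changes which ligands a Notch receptor answers, was higher in untreated db/db mice in 3 tissues. In SCN the db/db values were 11.17, 15.19 and 8.38 FPKM against 5.65, 4.76, 8.46 and 5.32 in db/+ (0.83, SE 0.17, adjusted p = 0.00539). In Glom the db/db libraries ran from 20.12 to 27.67 against 11.6, 16.26 and 17.77 (0.61, SE 0.18, adjusted p = 0.0213). In cortex they ran from 3.92 to 6.05 against 4.66, 2.41, 2.42, 1.96 and 3.07 (0.55, SE 0.15, adjusted p = 0.0221). The groups overlapped in SCN and cortex through a single db/+ library each and did not overlap in Glom. In untreated DRG, Lfng was between 0.95 and 1.38 in db/db and 1.36 and 1.86 in db/+, a difference, not tested, of -0.24 (SE 0.11). The SCN and cortex calls did not pass in fits of the compared groups alone (adjusted p = 0.0527 and 0.0956), the Glom call did not pass with the replicate number as a block (adjusted p = 0.0537), and the cortex call was lost without db/+ replicate 2, 3 or 4 or db/db replicate 4 (0.46 to 0.51, adjusted p up to 0.0667). In PIO-fed SCN, Lfng was again higher in db/db PIO (8.39 ± 0.628, n = 5, against 5.25 ± 0.742, n = 5, log2 fold change 0.59, SE 0.14, adjusted p = 0.00481).

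Over the whole list, diabetes in untreated mice called 3 of 13 genes tested in SCN, of which 2 were higher, where 14.9% of all genes tested were called in either direction. It called 5 of 14 in Glom, of which 3 were higher, against 25.4% of all genes, and 2 of 12 in cortex, Lfng higher and Dll4 lower, against 10.3%. In SCN the genes called were Lfng, Maml3 (0.64, SE 0.10) and, lower, Neurl1a, a ubiquitin ligase of Notch ligands (-0.53, SE 0.11). In Glom, beside Lfng, the named genes were Maml3 (-0.57, SE 0.14) and Aph1b, a gamma-secretase subunit (0.50, SE 0.15). The Aph1b call was lost in 5 of 7 other settings, among them median-of-ratios rescaling (0.42, adjusted p = 0.0557).

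In PIO-fed mice 3 of 15 pathway genes were called in SCN, all higher, against 33.8% of all genes, 2 of 13 in Glom against 8.41%, and 3 of 15 in cortex against 19.7%. Besides those above these were Maml3 (0.57, SE 0.10) and Hes6 (0.52, SE 0.14) in SCN, Aph1b (0.54, SE 0.12) in Glom, and Mfng (-0.81, SE 0.17) and Maml3 (0.48, SE 0.17) in cortex. The cortex call of Maml3 was lost in 15 of 24 fits with 1 library left out (adjusted p up to 0.107) and in 3 of 8 other settings.

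Pioglitazone in db/db mice called 1 of 12 pathway genes in SCN, Dtx4 (0.49, SE 0.11), against 10.1% of all genes. It did not pass after quantile normalization (adjusted p = 0.0788) or with the replicate number as a block (adjusted p = 0.0600). In Glom 3 of 13 were called against 23.1% of all genes, Crebbp (0.28, SE 0.09), Hes6 (-0.28, SE 0.10) and Pofut1 (0.27, SE 0.07). With 1 library left out, the call of Hes6 was lost in 15 of 24 fits and that of Crebbp in 9 of 24 (adjusted p up to 0.0950 and 0.0970). Over the other settings Hes6 lost its call in 5, turned direction in 1 and kept its call in 2. Median-of-ratios rescaling was among the 5 (-0.21, adjusted p = 0.143). Crebbp lost its call in 3 of the other settings and kept it in 4. Pofut1 did not pass in a fit of the compared groups alone (adjusted p = 0.0529) or with the block (adjusted p = 0.0839). Pioglitazone in db/db mice called 0 of 11 in DRG and 0 of 15 in cortex, where 3.24% of all genes were called, and pioglitazone in db/+ mice called none in any tissue, out of 12 to 17 tested, in limma.

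Between DRG and SCN the change with diabetes in PIO-fed mice differed for Nrarp, Lfng (-0.81, SE 0.17) and Maml3 (-0.34, SE 0.12), 3 of 13 tested. Maml3 lost this call in 16 of 47 fits with 1 library left out (adjusted p up to 0.0924) and in 5 of 8 other settings. Between Glom and cortex it differed for Maml3 (-0.84, SE 0.25), 1 of 11 tested, which did not pass without Glom db/db PIO replicate 4 (-0.75, adjusted p = 0.0648) or with a pseudocount of 0.1 (adjusted p = 0.131).

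The genes most like each member were those with the highest Pearson correlation of the group means of log2(FPKM + 1), over at least 12 groups with 3 values for both genes. These points share libraries and tissues, so a high r reflects mostly the order of the 4 tissues. For Dll1 the closest were Rerg (r = 0.989 over 16 groups), Sytl1 and Smad7. For Notch1 they were Ankrd58 (0.989 over 12), Irf2bp1 and Car13, and for Notch2 Zbtb39 (0.994 over 12), Spin4 and Rgs2. For Jag1 they were Sh3bgr (0.980 over 12), Itga4 and Adamtsl1, for Hey1 LOC100502647 (0.990 over 14), 6720489N17Rik and Kpnb1, and for Heyl Zfp324 (0.949 over 13), Prrc1 and Atp1b2. Notch3, Hes1, Hes5 and Hey2 had values in too few groups. Over single DRG libraries, of 4515 genes compared, those most like Hes5 were Greb1 (r = 0.904 over 16 libraries), Pctp (0.891 over 16), Sf3a1 (0.891 over 20), Tmem47 (0.882 over 16) and Lrrc14b (0.868 over 16). These libraries span all 4 groups and include the untreated ones in which Hes5 was first noticed. A high r there can come from a shared difference between db/+ and db/db libraries alone.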

How the data were processed

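RNA-Seq was run on polyadenylated RNA of SCN, DRG, Glom and cortex in 95 libraries (TruSeq mRNA v2 kit). Per the study's methods, the authors mapped reads to mouse build NCBI 37 (mm9) using TopHat with Bowtie, and the deposited values are FPKM from Cufflinks, 1 per gene symbol and library. Cufflinks and mm9 also stand in the submitters' notes on processing. Versions were not given in the sources used here. Cuffdiff, the test used in the study, needs aligned reads and was not repeated. Read totals are not in these tables, so depth per library is unknown and precision rests on the spread between libraries.

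Values were used as deposited, with an exact 0 read as missing. Groups were compared with limma 3.58.1 (R 4.3.3). The scale was log2(FPKM + 1), a pseudocount of 1, each fit held the 4 groups of 1 tissue with a mean for each, and variances were moderated with an intensity trend. Genes were tested if 5 or more libraries of the fit reached 1 FPKM and both groups compared had 3 or more values. p-values were two-sided and adjusted by Benjamini-Hochberg over all genes tested, with a threshold of 0.05. Differences between tissues were tested in 1 fit of both tissues, and tissue pairs in 1 fit of the db/+ libraries, without pairing by mouse. The fit was checked on simulated data. Tables and promoter searches were made in Python 3.11.15 (pandas 2.3.3, numpy 2.4.6) and figures in matplotlib 3.10.9. Groups followed the labels.

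The members, the pathway list, the marker lists and the tests were chosen with earlier results of these data known. All 10 members are named. Of the 54 other pathway genes, up to 3 per comparison are named, those past the threshold with the largest change, and any further name is marked in the text as chosen after its values were seen. 5 listed symbols are not in the tables. Nrarp, Dll4 and Lfng were given library by library after their values were seen. Alternatives were a pseudocount of 0.1, no filter on low values, each 0 entered as a value, median-of-ratios rescaling, quantile normalization, at least 5 values per group, the compared groups alone, the replicate number as a block, and each library left out in turn.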

Additional observations from a re-analysis of the deposited data

Results flagged for a closer look

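Of 90 sets of 4 to 6 values, each a member in a group of libraries of 1 tissue, 9 held a library that stood far from the others by Dixon's criterion. Chance gives about 1 in 20. In DRG, Notch3 was 1.05 FPKM in db/+ replicate 1, with the other 5 libraries between 1.36 and 1.54, and 0.84 in db/+ PIO replicate 1, with the other 3 values between 1.4 and 1.49. Jag1 was 4.39 in DRG db/+ replicate 5, with the others between 4.86 and 4.93. Dll1 was 0.55 in DRG db/+ replicate 3, against 0.21 to 0.33, and 0.09 in DRG db/+ PIO replicate 4, against 0.28 to 0.37. In Glom db/db PIO replicate 6 it was 9.89, against 5.99 to 6.54. Hes1 was 15.71 in SCN db/+ PIO replicate 4, against 8.94 to 10.02, and Hey1 was 10.6 in SCN db/db PIO replicate 5, against 7.92 to 8.52. Heyl was 0.83 in cortex db/db PIO replicate 4, against 0.41 to 0.55, and that library still lay below every library of the other cortex groups.

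The test of Hes5 between DRG and SCN, for diabetes in PIO-fed mice, gave -0.8461 on the log2(FPKM + 1) scale (adjusted p = 0.0126 in limma) and was listed because it passed. In SCN, Hes5 was at or below 0.09 FPKM in the 6 PIO-fed libraries with a value, where a change cannot show on this scale, so the value restates the change in DRG and no difference between the tissues was read from it.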

How the results depend on the processing

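The replicate numbers were checked for a pairing of libraries from different groups of the same tissue. Same-numbered libraries correlated above 0.1 in 10 of 36 pairs in SCN, 15 of 33 in DRG, 20 of 36 in Glom and 11 of 36 in cortex. In the same order, 6 of 24, 3 of 23, 9 of 24 and 4 of 24 libraries correlated best with one of their own number. The median correlation of same-numbered pairs was 0.12 in Glom, against -0.014 for other pairs. It was -6.87e-04 in SCN (other pairs 0.010), 0.060 in DRG (0.0061) and -0.0072 in cortex (0.010). A weak pairing by number in Glom is thus not excluded, and pairing across tissues was not examined. With the replicate number as a block, 0 members were called for diabetes in Glom (1 without it) and 0 for pioglitazone in db/db cortex (1 without it), the other counts of members called staying within 1.5 times. The block moved the calls over all genes in PIO-fed DRG from 354 to 235.

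The reading of a 0 mattered most. With each 0 entered as a value, 0 members were called for diabetes in PIO-fed DRG and PIO-fed cortex, for diabetes in Glom, for pioglitazone in db/db Glom and cortex, for the difference between DRG and SCN, and for SCN against Glom, SCN against cortex and Glom against cortex. DRG against Glom then had 3 and DRG against cortex 2, which need not be the members called with a 0 read as missing. Of those members, only Dll1 for DRG against Glom and Hey1 for DRG against cortex passed in every alternative that tested them. For SCN against DRG the highest adjusted p in limma over the alternatives other than left-out libraries was 0.886 for Notch1 and 0.393 for Dll1. Values that changed sign with each 0 entered as a value were Jag1 in PIO-fed DRG (0.076), Jag1 between DRG and SCN (0.39), Jag1 for SCN against Glom (0.70) and DRG against cortex (-0.059), Notch1 for SCN against Glom (0.23), and Notch2 in Glom for diabetes (0.97), pioglitazone in db/db mice (-0.32) and the interaction (-1.51). Of the other pathway genes, these were Lfng (-0.052) and Maml3 (-0.22) for diabetes in SCN, Dtx4 for pioglitazone in db/db SCN (-0.32), Adam17 (0.39) and Kat2b (-0.32) in PIO-fed DRG, Dll4 in PIO-fed Glom (1.27) and PIO-fed cortex (0.12), Hes6 (0.51) and Pofut1 (-1.01) for pioglitazone in db/db Glom, and Maml3 between Glom and cortex (0.21). Over all genes the calls fell from 354 to 0 in PIO-fed DRG, from 1069 to 127 for diabetes in Glom, from 961 to 110 for pioglitazone in db/db Glom and from 761 to 55 in PIO-fed cortex.

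At least 5 values per group left 0 members called for diabetes in Glom, pioglitazone in db/db Glom and the difference between DRG and SCN, 1 each for SCN against DRG, SCN against Glom, DRG against Glom and Glom against cortex, and 3 for SCN against cortex, since fewer genes were tested. With no filter on low values, 0 members were called for diabetes in Glom. With a pseudocount of 0.1 or median-of-ratios rescaling, 1 was called in PIO-fed SCN. Median-of-ratios rescaling and quantile normalization each called 1 for the interaction in Glom. Quantile normalization called 2 in PIO-fed cortex and 0 for pioglitazone in db/db cortex. Fits of the compared groups alone called 2 in PIO-fed cortex and 2 between DRG and SCN, and moved the calls over all genes in PIO-fed DRG from 354 to 131. The causes were not tested.

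Leaving out 1 library at a time gave 0 to 1 members called for diabetes in SCN, in PIO-fed SCN, for pioglitazone in db/db cortex and for the interaction in cortex, 0 to 2 for diabetes in Glom and between DRG and SCN, and 1 to 2 in PIO-fed cortex. It gave 2 to 4 for SCN against Glom and 2 to 5 for DRG against Glom and Glom against cortex. In PIO-fed DRG and for pioglitazone in db/db Glom the count was 2 in every such fit. The change of Hes5 with pioglitazone in db/db DRG ran from -0.044 to 0.16.

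Depth per library is unknown, 40.3% of the members' entries were at 0, and several groups compared had 3 values. A member that did not pass with so few values is not shown to be unchanged.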
